A study of Homo sapiens with 12 samples.

Results

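Haem synthesis was followed through 9 genes, SLC25A38, ALAS1, ALAS2, ALAD, UROS, UROD, CPOX, PPOX and FECH, in a table of 38272 loci of K562 cells. The members were taken by gene symbol, at the locus of highest mean level where a symbol sat on several loci. A total of 15 loci carried a member symbol, with 6 members on 1 locus and 3 (ALAS2, CPOX and FECH) on more than 1. All 9 were among the 32866 loci tested, those with at least 1 FPKM (fragments scaled to the length of the locus and the depth of the library) in at least 3 of the 12 libraries.

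K562 is an established line from a patient with chronic myeloid leukaemia that expresses erythroid genes. All 12 libraries came from transfected cells, in 4 groups of 3 libraries that the labels call biological replicates. Control cells received the mock pair SiCt and GapCt. SG cells received Si623 and Gap01, an siRNA and a GapmeR (an antisense oligonucleotide that recruits RNase H) directed at 1 lncRNA, which the series title names as PPTG1-1:1. TNF cells were the mock transfection with TNF, an inflammatory cytokine, at 20 ng/mL for 6 hours, and TNFSG cells combined Si623 and Gap01 with that treatment. The comparisons ask how TNF and the knock-down, alone and together, bear on these genes. Nothing in the labels says whether the libraries of a group came from separate cultures, so p-values measure the spread between these libraries. All results are from 1 cell line, and in bulk RNA fewer expressing cells and less RNA per cell cannot be told apart.

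Haem is made from glycine and succinyl-CoA in a pathway that begins and ends in the mitochondrion and passes through the cytosol in between. Its first enzyme, 5-aminolevulinate synthase, sets the pace in most cells and exists in 2 forms from separate genes: ALAS1 in all tissues, held down by haem itself, and ALAS2 in erythroid cells, governed by GATA1 and by an iron-responsive element in its mRNA. Erythroid cells make haem mainly for globin, and other cells for cytochromes, catalase and other haem enzymes.

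The libraries were checked before the members were read. FPKM summed to 925955 to 1083476 per library, and depth relative to the median library, estimated from the steps between low values, ran from 0.883 in control 3 to 1.35 in TNFSG 1. Read totals were not analysed here. Of the 10 K562 markers all had a mean of at least 1 FPKM. ICAM1, an adhesion protein induced by TNF, stood at 14.5 to 18.0 FPKM in the 6 libraries without TNF and 328 to 400.3 in the 6 with it. The locus named MIR146A, which may hold the targeted lncRNA, was at 0.159 to 0.569 FPKM in control and 0 to 0.063 in SG, and with TNF at 21.2 to 28.1 in mock-transfected cells and 4.03 to 7.77 after the knock-down. Summed markers of other cell types were not absent: over the 3 of 5 fibroblast markers in the table the sum was 23.9 to 56.3 in control, 55.1 to 1180 in TNF, 21.3 to 45.3 in SG and 65.2 to 444 in TNFSG, with COL1A2 at 1098 in TNF 1 and 2.60 in TNF 3. The 3 of 5 lymphoid markers summed to 16.7 to 41.2 FPKM in control, 16.0 to 50.3 in TNF, 30.1 to 39.6 in SG and 33.3 to 48.9 in TNFSG. The 4 of 5 epithelial markers summed to 195 to 240.0 in control, 167 to 209 in TNF, 180.0 to 222 in SG and 164 to 174 in TNFSG. The 2 of 5 endothelial markers summed to 21.7 to 57.2 in control, 29.6 to 43.0 in TNF, 15.9 to 51.3 in SG and 43.7 to 51.4 in TNFSG, and no marker in the table was at 0 in all libraries. Their part in the results was not tested.

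The bases upstream of 3 members are shown because SLC25A38 and ALAS1 are the members that passed the test and ALAS2 is the erythroid counterpart of ALAS1. They are RefSeq promoter sequence of GRCh38.p14, 5′ to 3′ on the strand of the gene, ending before the outermost annotated start. SLC25A38 is at chr3:39383174-39383323 (+), ALAS1 at chr3:52197933-52198082 (+) and ALAS2 at chrX:55031065-55031214 (-). Capitals mark matches to the NF-kB consensus in ALAS1 and to a GATA motif in ALAS2.
SLC25A38: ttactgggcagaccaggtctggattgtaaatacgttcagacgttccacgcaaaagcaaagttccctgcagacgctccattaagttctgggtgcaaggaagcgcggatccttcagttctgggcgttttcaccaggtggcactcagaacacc
ALAS1: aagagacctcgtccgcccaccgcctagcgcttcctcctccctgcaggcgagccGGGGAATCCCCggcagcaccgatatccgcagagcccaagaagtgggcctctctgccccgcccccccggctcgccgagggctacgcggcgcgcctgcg
ALAS2: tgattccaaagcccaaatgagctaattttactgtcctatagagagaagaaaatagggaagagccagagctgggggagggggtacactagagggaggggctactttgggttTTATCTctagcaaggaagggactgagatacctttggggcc
Promoter windows from 250 bases before to 50 after the RefSeq start were found for 8 of the 9 members, in 10 windows. The NF-kB consensus, searched on both strands, was found in the ALAS1 window alone, at chr3:52197986-52197996, where overlapping matches begin at positions -97 and -96 from the start, and in 5.909% of all 35116 windows. The GATA motif (AGATAA or TGATAA, both strands) was in the windows of 3 members, ALAS2, CPOX and PPOX, and in 16.309% of all windows. The NF-E2/AP-1 core TGAGTCA was in the ALAS2 window alone, at position -47, outside the stretch printed, and in 4.949% of all windows. A match describes the letters and not binding.

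ALAS1 was higher with TNF, and SLC25A38 was lower with TNF, in both transfections. ALAS1 makes the first precursor, 5-aminolevulinate, in the mitochondrial matrix. SLC25A38 is the mitochondrial carrier of glycine, the substrate of that enzyme, and is mutated in a form of congenital sideroblastic anaemia. The pair stand next to each other in the pathway and moved in opposite directions.

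The ALAS1 gene lies at chr3:52198086-52214327 on the plus strand (GENCODE release 29, hg38), and no annotated gene overlaps it. ALAS1 was at 25.5, 22.6 and 22.6 FPKM in control libraries 1, 2 and 3, and at 36.0, 31.2 and 33.4 in the TNF libraries. In SG it was at 22.4, 21.3 and 23.2, and in TNFSG at 32.7, 32.7 and 32.7. Every library with TNF was above every library without it, and TNFSG 1 and 3 were listed at the same value, 32.7373. On the log2(FPKM + 1) scale used for all changes, ALAS1 rose by 0.49 ± 0.07 (SE) in TNF against control (limma, Benjamini-Hochberg adjusted p = 0.00986 over all loci tested) and by 0.54 ± 0.07 in TNFSG against SG (limma adjusted p = 0.00577). Averaged over both transfections the rise was 0.51 ± 0.05, with a 95% interval of 0.40 to 0.63 (limma adjusted p = 0.000435). Within the replicate numbers the TNF difference was 0.48, 0.45 and 0.55 in mock-transfected cells and 0.53, 0.60 and 0.48 after the knock-down. Without control 2 or control 3 the adjusted p for TNF against control was 0.0535 or 0.0528, and leaving out any 1 library ended the call in neither TNFSG against SG nor the average.

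The SLC25A38 gene lies at chr3:39383324-39397351 on the plus strand, with no overlapping gene. SLC25A38 was at 20.9, 24.7 and 25.4 FPKM in control and at 16.2, 14.96 and 17.1 in TNF. It was at 26.3, 26.4 and 28.3 in SG and at 16.0, 17.3 and 18.1 in TNFSG. The 6 libraries with TNF lay below all 6 without it. The change was -0.52 ± 0.09 in TNF against control (limma adjusted p = 0.0208), -0.63 ± 0.09 in TNFSG against SG (limma adjusted p = 0.00713) and -0.58 ± 0.06 on average, with a 95% interval of -0.72 to -0.43 (limma adjusted p = 0.000727). Within numbers it was -0.35, -0.68 and -0.54 in mock-transfected cells and -0.68, -0.58 and -0.62 after the knock-down. The adjusted p for TNF against control was 0.1 without control 2, 0.0959 without control 3, 0.0667 without TNF 1 and 0.0782 without TNF 2, and no single library ended the call in the other comparisons.

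**Figure D1:**
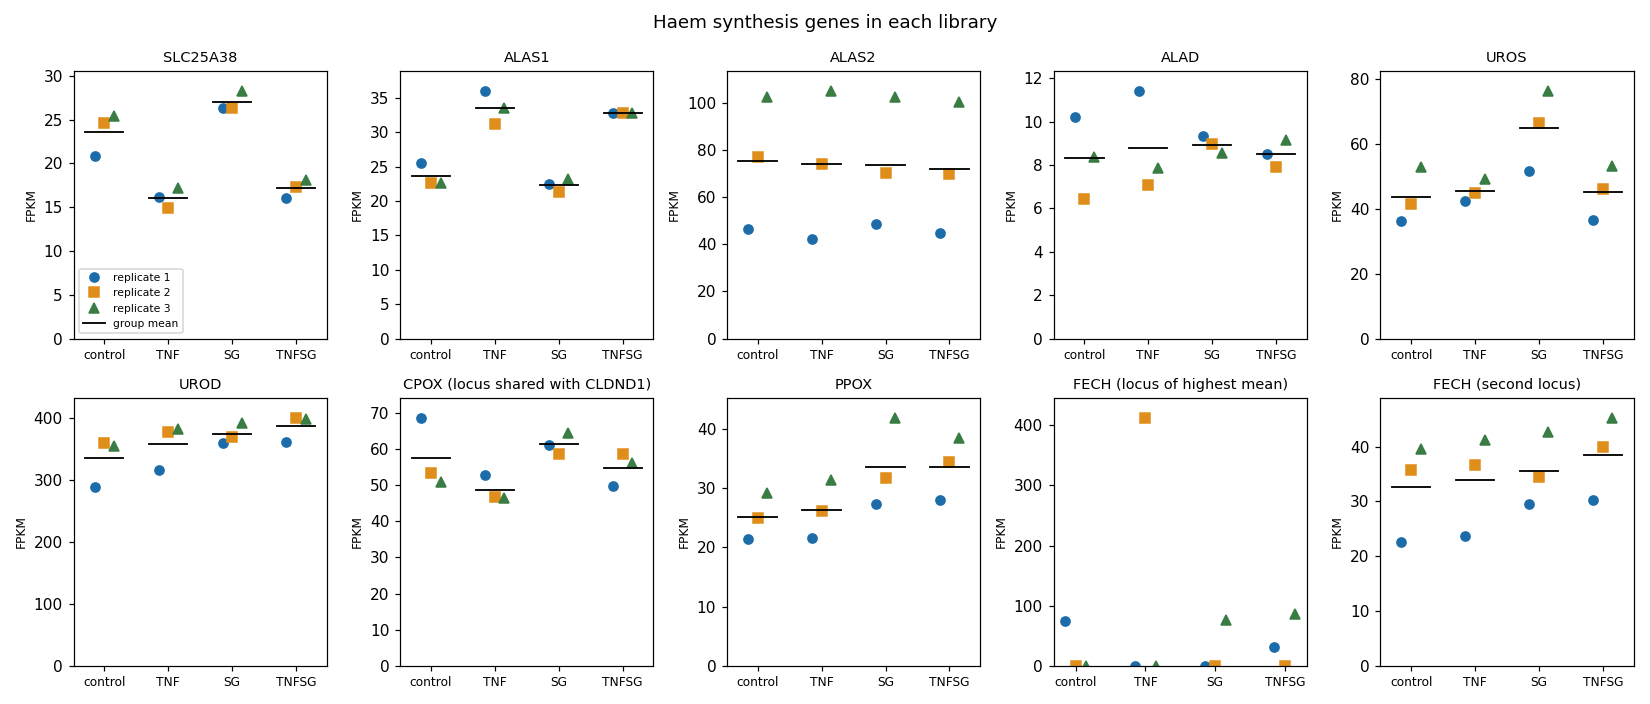
FPKM of each haem synthesis member (vertical axis, from 0) in the 3 libraries of each group (horizontal axis), with symbols for the replicate number and a bar for the group mean; FECH is drawn at 2 loci, with no mean at the locus listed at 0 in 7 libraries. ALAS1 was 31.2 to 36.0 with TNF and 21.3 to 25.5 without it, and ALAS2 spread from 42.4 to 105 within groups.

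These 2 were the only members called in any comparison, 1 higher and 1 lower with TNF. In TNF against control, 1.18% of loci tested were called higher and 0.277% lower; in TNFSG against SG, 1.37% were higher and 0.277% lower. On average over both transfections 2.84% were called higher and 1.55% lower. No member was called in SG against control (0.17% of loci called in either direction), in TNFSG against TNF (0.128%), in SG averaged with and without TNF (1.11%) or in the interaction, the difference between the TNF effects of the transfections (0.00913%). At an unadjusted p under 0.05 these held 1 member (UROS), 0, 1 (PPOX) and 0, against 9.86%, 9.11%, 14.6% and 3.75% of loci. The interaction was 0.04 ± 0.11 for ALAS1 (95% interval -0.19 to 0.28) and -0.10 ± 0.13 for SLC25A38 (-0.39 to 0.18), each with an adjusted p of 1 in limma. The median change of the 9 members was 0.06 in TNF against control and -0.05 in TNFSG against SG, beside -0.02 and -0.03 over all loci tested. In SG averaged with and without TNF it was 0.14, beside 0.09.

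**Figure D2:**
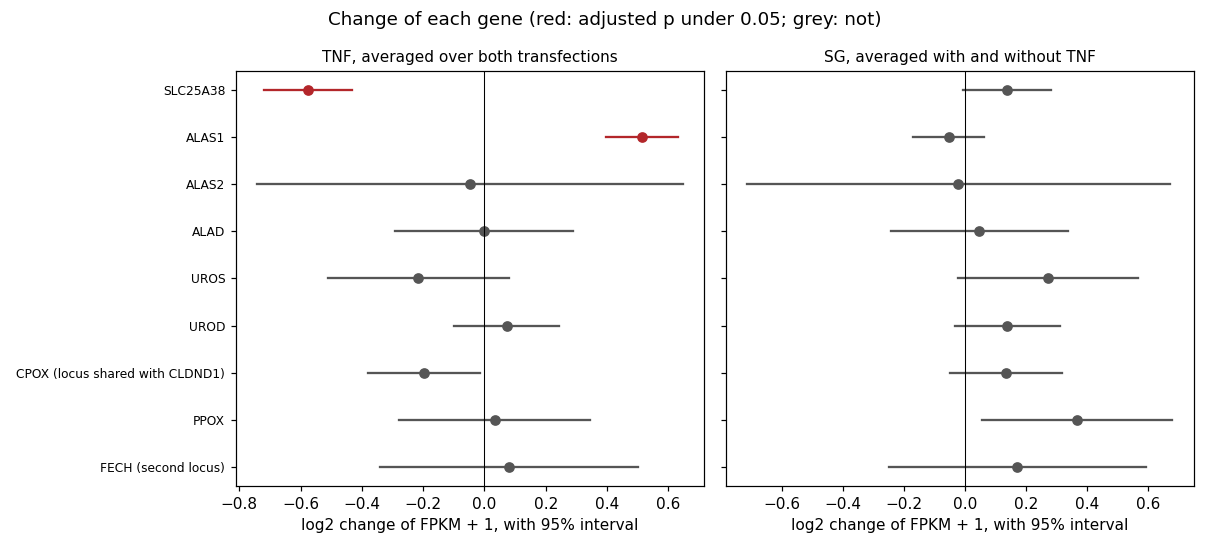
Change of each member on the log2(FPKM + 1) scale with its 95% interval (horizontal axis) for TNF averaged over both transfections and for SG averaged with and without TNF, red where the limma adjusted p was under 0.05; FECH is drawn at its second locus only. SLC25A38 at -0.58 and ALAS1 at 0.51 under TNF are the 2 red points, and the ALAS2 interval under TNF runs from -0.74 to 0.65.

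By the measure of likeness used, Pearson correlation of log2(FPKM + 1) over 12 libraries among 12611 named loci, the loci most like ALAS1 were TICAM1 (0.989), IER3 (0.982) and ZC3H12A (0.981). TICAM1 averaged 7.32 FPKM in control and 7.07 in SG, and 16.6 in TNF and 16.4 in TNFSG. Those most like SLC25A38 were CORO2A (0.972), CHST10 (0.967) and AEN (0.958), with CORO2A averaging 10.4 FPKM in control and 11.6 in SG, and 7.46 in TNF and 7.49 in TNFSG. ALAS1 and SLC25A38 correlated at -0.94 over the 12 libraries, which share the 4 groups.

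ALAS2, the erythroid synthase, had group means between 71.8 and 75.3 FPKM and a far wider spread between replicate numbers. Its gene lies at chrX:55009055-55031064 on the minus strand and shares 3 exon bases with APEX2 on the opposite strand. ALAS2 was at 46.5, 76.9 and 102 FPKM in control libraries 1, 2 and 3 and at 42.4, 74.3 and 105 in TNF. It was at 48.8, 70.2 and 102 in SG and at 44.8, 70.1 and 101 in TNFSG. In each of the 4 groups the library numbered 1 was lowest and the library numbered 3 highest. By number, ALAS2 averaged 45.6 ± 2.68, 72.9 ± 3.35 and 103 ± 1.95 (SD, n = 4 libraries), with the libraries numbered 3 at 2.25 times those numbered 1. Of its log2 variance, 98.7% lay between numbers and 0.304% between groups, and its share between numbers ranked 1 among the 32866 loci tested, where the median locus had 17.4%. The labels do not say what a number stands for. Relative depth was 0.895 to 1.35 in the libraries numbered 1, 0.926 to 1.04 in those numbered 2 and 0.883 to 1.11 in those numbered 3, and its part in this pattern was not tested. The TNF change averaged over both transfections was -0.05 ± 0.31, with a 95% interval of -0.74 to 0.65 (limma adjusted p = 0.967). That fit has no term for the replicate number, so the width of the interval includes the spread between numbers. Within numbers the TNF difference of ALAS2 was -0.13, -0.05 and 0.04 in mock-transfected cells and -0.12, -0.003 and -0.03 after the knock-down. A lesser ALAS2 locus, at 1.48 to 6.03 FPKM, had an average TNF change of -0.61 ± 0.23 that missed the threshold (limma adjusted p = 0.215).

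Since ALAS1 rose with TNF and ALAS2 did not pass the test, the share of ALAS2 in their summed FPKM was read in each library. It was 64.5%, 77.3% and 81.9% in control 1, 2 and 3, and 54.1%, 70.4% and 75.9% in TNF. It was 68.5%, 76.7% and 81.5% in SG and 57.8%, 68.1% and 75.5% in TNFSG. The groups overlapped, while within each number both libraries with TNF had a lower share than both without it. This share was not tested, since it is made of values already tested.

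**Figure D3:**
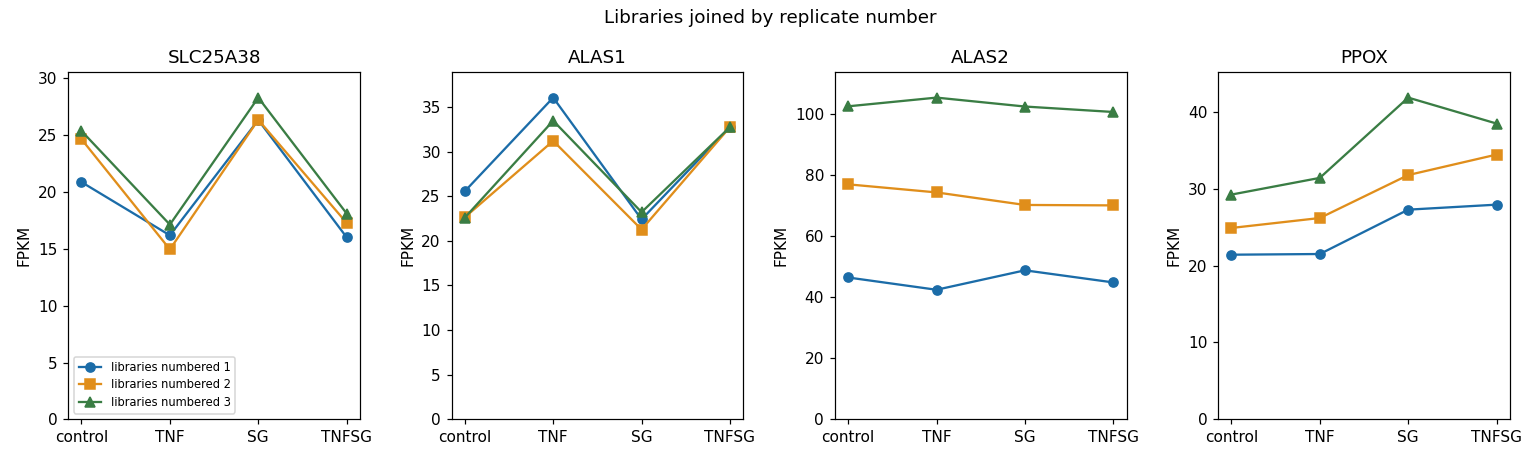
FPKM of SLC25A38, ALAS1, ALAS2 and PPOX (vertical axes, from 0) in the 4 groups (horizontal axis), with libraries of the same replicate number joined by a line as a guide to the eye. ALAS2 lines run flat and apart, at 45.6, 72.9 and 103 FPKM on average, whereas ALAS1 and SLC25A38 lines lie close together and shift with TNF.

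ALAD, UROS and UROD act in the cytosol. ALAD joins molecules of 5-aminolevulinate into porphobilinogen and is inhibited by lead. Its gene lies at chr9:113386317-113401333 on the minus strand. At 6.44 to 11.4 FPKM it had the lowest mean of the members, with group means of 8.34 ± 1.89 in control and 8.79 ± 2.32 in TNF, then 8.94 ± 0.39 in SG and 8.52 ± 0.64 in TNFSG (SD, n = 3). The 4 means differed by less than the SD of the TNF group, and the average TNF change was -0.00 ± 0.13 (95% interval -0.29 to 0.29).

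UROS forms uroporphyrinogen III, the first ring of the pathway that leads to haem. Its gene lies at chr10:125784980-125823285 on the minus strand, with the microRNA gene MIR4484 inside it on the other strand and no exon base shared. UROS was at 36.2, 41.6 and 53.1 FPKM in control libraries 1, 2 and 3, and at 42.5, 45.002 and 49.1 in TNF. It was at 51.6, 66.6 and 76.5 in SG and at 36.7, 46.1 and 53.2 in TNFSG. The SG group had the highest mean, 64.9 ± 12.5, against 43.6 ± 8.61 in the control group, 45.6 ± 3.34 with TNF and 45.3 ± 8.29 in TNFSG, and its libraries lay above all TNF libraries but overlapped those of control and TNFSG. The change was 0.56 ± 0.19 in SG against control (limma adjusted p = 0.346) and -0.51 ± 0.19 in TNFSG against SG (limma adjusted p = 0.312). Within numbers, the difference of SG from control was 0.50, 0.67 and 0.52 and that of TNFSG from SG was -0.48, -0.52 and -0.52. The interaction was -0.58 ± 0.26 with an unadjusted p of 0.0526 (limma adjusted p = 1).

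UROD removes carboxyl groups from uroporphyrinogen and has reduced activity in porphyria cutanea tarda. It had the highest mean of the members, with its gene at chr1:45012147-45015575 on the plus strand. UROD averaged 335 ± 39.6 FPKM in control and 359 ± 36.9 in TNF, then 374 ± 16.8 in SG and 387 ± 22.3 in TNFSG, over a range of 289 to 401 in single libraries. The control libraries, at 289 to 360.2 FPKM, lay just below all SG libraries (from 360.5) and all TNFSG libraries (from 361), and the other pairs of groups overlapped. Within every number and in each of the 4 pairwise comparisons the difference was above 0, between 0.00 and 0.32 on the log2 scale, and none passed the test. Average changes were 0.07 ± 0.08 for TNF and 0.14 ± 0.08 for SG (limma adjusted p = 0.727 and 0.457).

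CPOX, PPOX and FECH carry out the last steps of the pathway, back at the mitochondrion. CPOX, coproporphyrinogen oxidase, works between the mitochondrial membranes. Its gene is at chr3:98579446-98593723 on the minus strand and shares 163 exon bases with AC021660.3 on the same strand. The CPOX locus of highest mean carries the name of CLDND1 as well, so its FPKM cannot be divided between CPOX and CLDND1. That locus was at 68.6, 53.4 and 50.8 FPKM in control and at 52.9, 46.8 and 46.5 in TNF. After the knock-down it was at 61.2, 58.8 and 64.5 without TNF and 49.7, 58.6 and 56.2 with it. The TNF libraries overlapped control, and the TNFSG libraries, at up to 58.56, lay just below those of SG, from 58.75. The average TNF change of -0.20 ± 0.08 had an unadjusted p of 0.0383 and a limma adjusted p of 0.274. Of 3 lesser CPOX loci without CLDND1, the least was at 1.01, 2.69 and 2.23 FPKM in control and 0.492, 0 and 0 in TNF. It was called lower in TNF against control (limma adjusted p = 0.0456). The locus reached 1 FPKM in the 3 control libraries alone, and so passed the filter through that group only. A lower value in the other groups was thus largely set by the filter, and the call cannot be read as a TNF effect. This locus was also low in SG, at 0.314, 0 and 0, and in TNFSG, at 0.209, 0 and 0. Its change in TNFSG against SG was -0.04 (limma adjusted p = 0.981). The adjusted p for TNF against control was 0.143 to 0.172 without control 2, control 3, TNF 2 or TNF 3.

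PPOX oxidises protoporphyrinogen to protoporphyrin. The PPOX gene is at chr1:161166410-161178013 on the plus strand and shares 1118 exon bases with B4GALT3 on the opposite strand, whose reads may not be separated. PPOX was at 21.4, 24.9 and 29.2 FPKM in control libraries 1, 2 and 3, and at 21.5, 26.2 and 31.4 in TNF. It was at 27.3, 31.8 and 41.8 in SG and at 27.9, 34.4 and 38.5 in TNFSG. Values with Si623 and Gap01 overlapped those without, yet within each number they were higher, by 0.33, 0.34 and 0.50 without TNF and 0.36, 0.38 and 0.28 with it. Averaged with and without TNF the change was 0.37 ± 0.14, with a 95% interval of 0.06 to 0.68 (unadjusted p = 0.0252, limma adjusted p = 0.26), against a median of 0.09 over all loci in that comparison. B4GALT3 averaged 36.8, 34.1, 38.6 and 36.2 FPKM in control, TNF, SG and TNFSG.

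FECH, ferrochelatase, inserts iron into protoporphyrin to give haem, and needs an iron-sulphur cluster. Its gene lies at chr18:57548283-57586772 on the minus strand. The FECH locus of highest mean was intermittent: it was at 75.3, 0 and 0 FPKM in control libraries 1, 2 and 3 and at 0, 412 and 0 in TNF. After the knock-down it was at 0, 0 and 75.8 without TNF and 31.3, 0 and 85.9 with it. It was listed at 0 in 7 of 12 libraries and above 0 in 5, and its fitted changes, with an SE of 2.96 in the pairwise comparisons, did not pass the test in any comparison. The second FECH locus was above 0 in all 12: it was at 22.6, 35.8 and 39.5 FPKM in control and at 23.6, 36.7 and 41.1 in TNF. After the knock-down it was at 29.5, 34.5 and 42.7 without TNF and 30.3, 39.9 and 45.3 with it. Its groups overlapped, and its average changes were 0.08 ± 0.19 for TNF and 0.17 ± 0.19 for SG (limma adjusted p = 0.893 and 0.736). The third FECH locus averaged 2.34 FPKM.

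The members thus divided by where their variance lay. For ALAS1 and SLC25A38, 94.5% and 92.9% of the log2 variance was between groups. For ALAS2 and the second FECH locus, 98.7% and 84.1% was between replicate numbers, the latter ranking 119 among loci tested. PPOX (54.0%), ALAD (53.9%) and UROD (51.2%) were intermediate in the share between numbers, UROS had 38.5% and CPOX 6.37%. Their shares between groups were 44.1% for PPOX, 4.19% for ALAD, 36.6% for UROD, 56.6% for UROS and 51.3% for CPOX. The direction between numbers was not shared by all: ALAD averaged 9.87 FPKM in the libraries numbered 1 and 8.48 in those numbered 3. Libraries numbered 1 were lowest and those numbered 3 highest in all 4 groups for 3 of the 9 members, ALAS2, UROS and PPOX, and for 0.654% of loci tested, or 1.23% of those with a mean of at least 5 FPKM. Over the 12 libraries, the correlation with ALAS2 was 0.91 for the second FECH locus, 0.71 for PPOX, 0.67 for UROD and 0.60 for UROS. It was 0.24 for SLC25A38, 0.04 for the FECH locus of highest mean, -0.15 for ALAS1, -0.23 for CPOX and -0.52 for ALAD. These points share libraries and depth. The locus of the embryonic and fetal globins HBE1 and HBG2, which take up haem, moved with the numbers too, from 1378 to 1410 FPKM in the libraries numbered 1, 1778 to 2369 in those numbered 2 and 2778 to 3414 in those numbered 3.

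**Figure D4:**
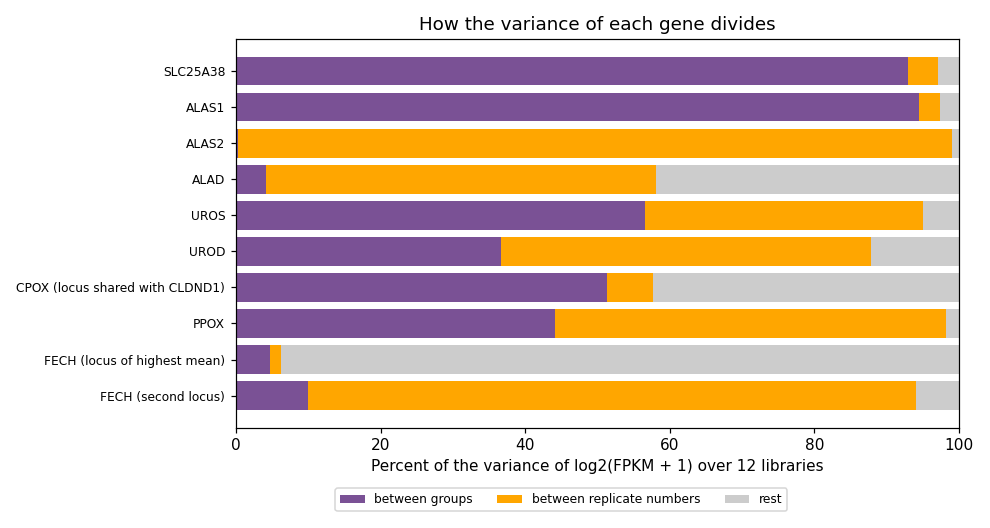
Percent of the variance of log2(FPKM + 1) over 12 libraries (horizontal axis) that lies between the 4 groups, between the 3 replicate numbers and in the rest, for each member and both larger FECH loci. The group share is 94.5% for ALAS1 and 92.9% for SLC25A38, and the number share is 98.7% for ALAS2.

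Genes around the pathway were read from lists. In TNF averaged over both transfections, where 2.84% of all loci were called higher and 1.55% lower, the list of regulators of haem synthesis had 0 of 18 higher and 3 lower. NFE2, a globin and haem gene activator of erythroid cells, fell from 99.1 ± 3.60 FPKM in control to 50.0 ± 6.87 in TNF and from 100.1 ± 7.13 in SG to 44.8 ± 7.71 in TNFSG, an average change of -1.07 ± 0.09 (limma adjusted p = 0.00017). It was also called in both pairwise TNF comparisons (limma adjusted p = 0.00541 and 0.00204). KLF1, a master activator of the beta-globin gene, went from 93.9 to 63.2 FPKM in mock-transfected cells and from 87.3 to 54.5 after the knock-down, and fell by 0.62 on the log2 scale on average (limma adjusted p = 0.00912). ZFPM1, the GATA1 partner FOG1, fell from 15.1 to 11.1 and from 15.9 to 9.53 FPKM (limma adjusted p = 0.0204, and 0.0536 to 0.0583 without control 2, control 3, SG 1, TNFSG 1 or TNFSG 2). KLF1 and ZFPM1 were called on average only. In TNF against control and TNFSG against SG the limma adjusted p was 0.133 and 0.0597 for KLF1, and 0.344 and 0.0647 for ZFPM1. NFE2L2, the oxidative stress factor NRF2, was called under SG, at 32.7 FPKM in control libraries, 37.1 with TNF and, after the knock-down, at 25.1 without TNF and 28.97 with it (average SG change -0.36 ± 0.06, limma adjusted p = 0.0293). That call was lost in 11 of the 12 fits without 1 library, with adjusted p up to 0.0827. NFE2L2 was called in neither SG against control nor TNFSG against TNF (limma adjusted p = 0.202 and 0.247).

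Among the 10 tested genes of porphyrin and mitochondrial iron transport, 1 was called, lower in TNF against control and in TNF averaged over both transfections. Of all loci, 0.277% and 1.55% were called lower in these comparisons. PGRMC2, a haem chaperone, fell from 38.9 to 25.8 FPKM in mock-transfected cells and was at 32.5 in SG and 24.3 in TNFSG, an average TNF change of -0.50 ± 0.07 (limma adjusted p = 0.00292). Its call in TNF against control (adjusted p = 0.0187) held in none of the 6 fits that each dropped a library, at 0.0541 to 0.0763. PGRMC2 was not called in TNFSG against SG (limma adjusted p = 0.0794). In haem breakdown, export and use, 2 of 14 were called in TNF averaged over both transfections, 1 higher and 1 lower. Of all loci, 2.84% were called higher and 1.55% lower there. ABCG2, a porphyrin and drug exporter, was at 6.05, 13.2, 6.85 and 14.8 FPKM (average TNF change 1.03 ± 0.21, limma adjusted p = 0.0233, lost in 6 of the 12 fits without 1 library, at up to 0.0623). FLVCR1, long described as a haem exporter, was at 8.98, 5.86, 7.86 and 5.86 FPKM (average TNF change -0.45 ± 0.10, limma adjusted p = 0.0382, lost in 11 of 12 such fits, at up to 0.0945). ABCG2 and FLVCR1 were called on average only. In TNF against control and TNFSG against SG the limma adjusted p was 0.17 and 0.17 for ABCG2, and 0.146 and 0.35 for FLVCR1. None of the 9 tested genes of substrate supply was called, 2 having an unadjusted p under 0.05 in TNF averaged over both transfections, as had 15.9% of all loci. SUCLA2, a subunit of succinyl-CoA synthetase, had the lowest p, at 24.1, 21.0, 24.7 and 22.2 FPKM (average TNF change -0.17 ± 0.06, limma adjusted p = 0.167).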

How the data were processed

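Per the labels' protocols, Trizol RNA was sequenced on a HiSeq, 50 bases from 1 end. The authors deposited FPKM values, 1 column per library; per the submitters' processing notes the tools were Bowtie2 2.2.9, TopHat2 2.0.14 and Cufflinks with build hg38. For the Cufflinks version and the annotation, no entry is given in the sources used. Of 38272 loci, 9035 have no name and 839 several names, and no 2 libraries held identical values.

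FPKM of the 12 libraries were used as deposited and transformed as log2(FPKM + 1), which understates changes of low loci. A single limma 3.58.1 model (R 4.3.3, empirical Bayes with a mean trend) had 1 mean per group and no term for the replicate number. It covered loci reaching 1 FPKM in 3 or more libraries. P-values were adjusted by Benjamini-Hochberg over all loci within a comparison, at 0.05; the procedure was tested on simulated data. Read counts were not analysed here, so no count test was run.

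Named are all 9 members, every called gene of 5 related lists (where none was called, its gene of lowest p under TNF), and the 3 loci most correlated with each called member. Some results of these lists are not reported here. The members and lists were chosen with earlier results of these data known. Alternatives were other pseudocounts, filters, scalings, locus sums, sample sets, left-out libraries and a replicate block.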

Additional observations from a re-analysis of the deposited data

How the results depend on the processing

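The number of members called in TNF against control, 2 as reported, was 1 (ALAS1) without the mean trend and 0 when the fit held just the 2 groups compared; leaving out 1 library gave 0 to 2. A fit with the replicate number as a block was also made, as the reported fit has no term for the number. The labels do not say whether libraries of a number belong together, though their titles share a letter, A, B or C. Over all tested loci, the 18 same-number pairs had correlations of deviations of 0.007 to 0.138, with 1 over 0.1. Pairs of different numbers had -0.093 to 0.043, and 8 of 12 libraries were closest to their own number. With at least 5 FPKM in at least 3 libraries, same-number pairs had -0.012 to 0.133, and 6 of 12 libraries were closest to their own. The numbers fell in the same order in all 4 groups for 2.851% of loci tested. With that replicate block 1 member, PPOX, was called in SG averaged with and without TNF (adjusted p = 0.00876), UROS in TNFSG against SG (0.019), and the lesser ALAS2 locus in TNFSG against SG (0.0244) and TNF averaged (0.00493). The pairing block, with all libraries of 1 number left out (chosen after seeing the data), called 0 members in TNF against control and 0 in TNFSG against SG whichever number was left out, and 0 in TNF averaged without number 2 or 3; 2 libraries a group then remain. Loci called moved by over 1.5 times: with the block, 831 against 478 in TNF against control, 843 against 540 in TNFSG against SG and 938 against 365 in SG averaged; with just the 2 groups in the fit, 172, 256, 7 and 2 against 478, 540, 56 (SG against control) and 42 (TNFSG against TNF). With at least 5 FPKM, 115, 97 and 701 loci were called against 56, 42 and 365 in the SG comparisons, and 16, 18 and 158 without the trend. Quantile normalization moved the median of all loci in SG averaged from 0.09 to -0.025, a shift of -0.114, under which PPOX stood at 0.30; the ALAD change there, under its SE, was -0.08. It left 86 higher and 351 lower calls there, against 195 and 170. A pseudocount of 0.1 gave 12 interaction calls against 3. With 1 library left out, loci called ranged over 294 to 432 in TNF against control, 311 to 364 in TNFSG against SG, 10 to 29 in SG against control, 7 to 18 in TNFSG against TNF, 1 to 6 in the interaction, 978 to 1356 in TNF averaged (1441 as reported) and 132 to 340 in SG averaged. Among single genes, 1695 alternative values kept their side of the threshold, 113 lost a call and 4 gained one. In 120 of 1332 member fits the sign differed, 34 of them the intermittent FECH locus; each had a reported change under its SE and neither value past the threshold, and was given no direction. The cause of these differences was not tested. Read totals were not analysed here, so no counting error is given for any value.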
